A study of Rattus norvegicus with 10 samples.

Results

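The genes described here encode the subunits of the AMPA and kainate receptors, the ion channels through which glutamate gates fast excitatory currents. They are *Gria1* to *Gria4* for the AMPA receptor and *Grik1* to *Grik5* for the kainate receptor. Members were chosen by gene symbol in the deposited table of the study, and all 9 of them have 1 row each among its 12828 genes. The study sequenced RNA of the arcuate nucleus (ARC), a nutrient-sensing part of the hypothalamus, at parturition. It did so in 10 Wistar dams, of which 5 had eaten a pregnancy diet named 5X-FA and the other 5 one named 5X-MTHF. FA is folic acid and MTHF is a methylfolate given as the calcium salt in equimolar amount. Both groups were first-time pregnant, ate a purified AIN-93G diet at 5X the recommended folate level and had the ARC cut free-hand from frozen slices.

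The level used throughout is the authors' average log2 CPM, the log2 of read counts scaled to library size, taken over all libraries of both diets. It is 1 value per gene, without a spread, and it was not divided by transcript length, so it ranks genes by reads and not by transcripts. No difference between the diets is given here: the per-sample columns of the table carry only numbers that match no sample label, and the statistics of the authors' own comparison were not used. A percentile below is the share of the 12828 genes with a lower average.

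Both receptor types are tetramers of homologous subunits. In most principal neurons of the adult brain the AMPA receptor contains GluA2, the product of *Gria2*, whose transcript is edited at the glutamine/arginine site so that the channel passes little calcium. Receptors that lack GluA2 pass calcium and open and close quickly. In the kainate family, GluK1 to GluK3 can form channels on their own, whereas GluK4 and GluK5 bind glutamate with high affinity but need one of the other subunits to form a channel. Glutamatergic input to the ARC acts on neurons that control feeding and reproduction.

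All 4 AMPA subunit genes lay among the top 25% of genes by average log2 CPM, above 6.18. *Gria2* had the largest read share, with an average log2 CPM of 9.40 in the authors' table (673 CPM), at percentile 99.0, and 131 genes had more reads. *Gria1*, which encodes GluA1, a subunit delivered to synapses during long-term potentiation, had an average log2 CPM of 7.50 (181 CPM) at percentile 91.8. *Gria4*, whose product GluA4 forms fast channels in many interneurons, stood at 7.44 (173 CPM), at percentile 91.3. The X-linked *Gria3*, encoding GluA3, stood at 7.42 (172 CPM), at percentile 91.2. *Gria1*, *Gria4* and *Gria3* thus lay within 1.06-fold of each other in reads, and *Gria2* lay 1.89 above *Gria1* in average log2 CPM. Of the reads assigned to the 4 AMPA genes, *Gria2* took 56.1%, *Gria1* 15.1%, *Gria4* 14.5% and *Gria3* 14.3%. Whether the last 3 differ between dams, or from each other beyond the spread between dams, could not be assessed from an average.

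The 5 kainate subunit genes covered a wider range, from 4.75 to 7.00 in average log2 CPM. *Grik5* and *Grik2* were among the top 25% of genes. *Grik5*, for the high-affinity subunit GluK5, had an average log2 CPM of 7.00 (128 CPM) at percentile 87.0. *Grik2*, for the channel-forming GluK2, stood at 6.53 (92.2 CPM), at percentile 80.8. *Grik4*, for GluK4, the other high-affinity subunit, stood at 5.55 (46.7 CPM), at percentile 62.7. The remaining channel-forming subunits were nearer to the middle of the table. *Grik3*, for GluK3, a receptor of low glutamate affinity, had an average log2 CPM of 5.10 (34.3 CPM) at percentile 53.2. *Grik1*, for GluK1, had 4.75 (26.9 CPM) at percentile 46.0, the one member below the median of all genes. *Grik5* took 39.1% of the reads of the 5 kainate genes and *Grik2* took 28.1%. *Grik4* took 14.2%, *Grik3* 10.4% and *Grik1* 8.19%.

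**Figure D1:**
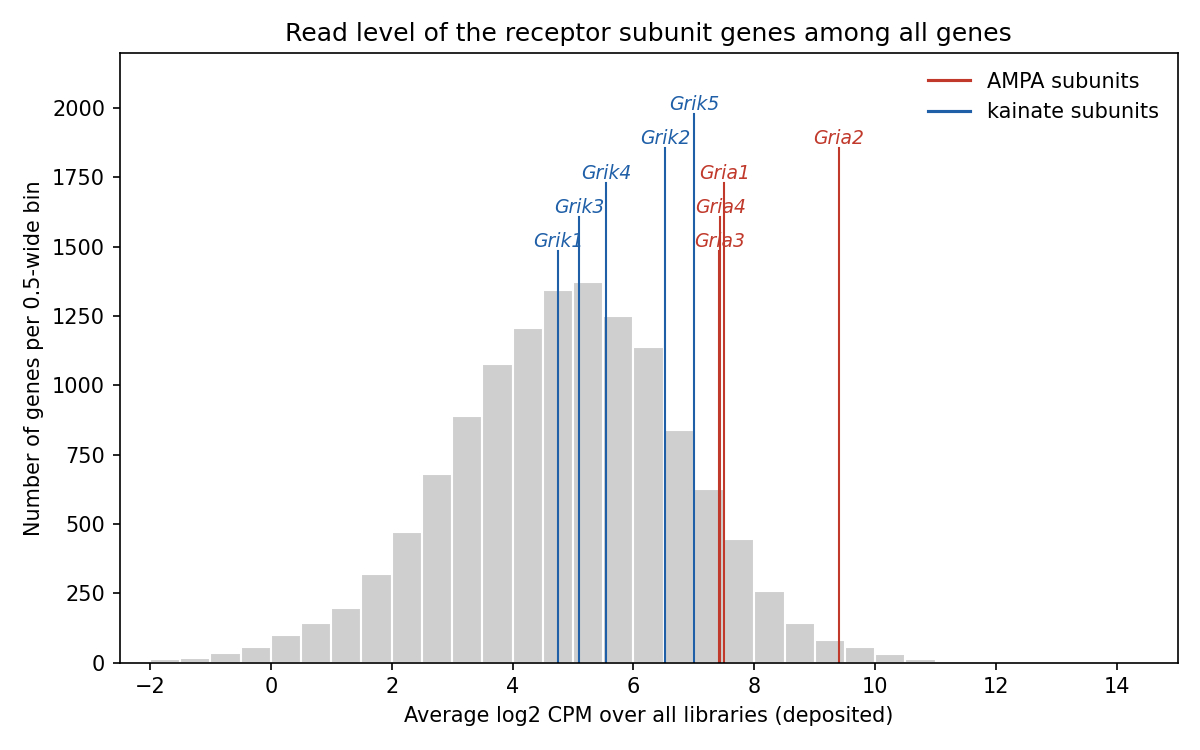
The histogram counts genes (y axis) by the deposited average log2 CPM over all libraries (x axis, bins 0.5 wide), and vertical lines place the AMPA (red) and kainate (blue) subunit genes. *Gria2* stands alone at 9.40, *Gria1*, *Gria3* and *Gria4* cluster between 7.42 and 7.50, and the kainate genes spread from 4.75 to 7.00; line heights only separate the names.

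Over the 9 genes the median average log2 CPM was 7.00, and over all genes it was 4.94. In all, 8 of the 9 were above that median and 6 were among the top 25%. The table holds genes that passed a minimum of reads, so these counts describe the members against expressed genes only. Of the reads assigned to the 9 genes, *Gria2* took 44.1% and *Grik1* 1.76%. Sorted by reads the order was *Gria2*, *Gria1*, *Gria4*, *Gria3*, *Grik5*, *Grik2*, *Grik4*, *Grik3* and *Grik1*. Apart from the first step, the largest gap between neighbours in this order was that from *Grik2* to *Grik4*, 0.98 on the log2 scale. The smallest was that from *Gria4* to *Gria3*, 0.02. No value per dam was used for these gaps, so none of them was tested, and transcript length enters each.

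The 9 genes lie on 8 chromosomes of Rnor_6.0, and all are protein-coding. The AMPA genes are *Gria1* (ENSRNOG00000045816) on chromosome 10 from 42614713 to 42760200, *Gria2* (ENSRNOG00000054204) on chromosome 2 from 179584308 to 179704629, *Gria3* (ENSRNOG00000007682) on chromosome X from 127562660 to 127829753 and *Gria4* (ENSRNOG00000006957) on chromosome 8 from 1548146 to 2045817. The kainate genes *Grik1* (ENSRNOG00000001575) and *Grik2* (ENSRNOG00000000368) lie on chromosome 11 from 27811957 to 27971359 and on chromosome 20 from 53789760 to 54517709. *Grik3* (ENSRNOG00000008992) lies on chromosome 5 from 143500441 to 143715546. *Grik4* (ENSRNOG00000030910) shares chromosome 8 with *Gria4*, from 46806147 to 47094352, and the genes are 44.8 Mb apart. *Grik5* (ENSRNOG00000020310) lies on chromosome 1 from 81885521 to 81946714.

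They are long genes. Their median genomic span, introns included, was 215 kb, and over all genes in the table it was 21.5 kb. In all, 7 of the 9 were among the longest 10% of genes, above 124 kb. *Grik2* spanned 728 kb, at percentile 99.7 of span, and *Gria4* spanned 498 kb. *Grik5* was the shortest at 61.2 kb, at percentile 77.4. *Gria2*, with the most reads, spanned 120 kb, and *Grik1*, with the fewest, spanned 159 kb. Surroundings differed as well. *Grik5* lies 5.35 kb before *Zfp574*, the next listed gene. *Gria3* lies 2636 kb from the nearest listed gene before it and 332 kb from the one after it. For 8 of the 9 genes no other row of the table overlaps the gene. *Grik2* is overlapped by 1 row, AABR07045632.1, whose average log2 CPM was 0.25. The methods state a strand-specific library but not the strand setting of the counting, and whether that pair shares reads was not tested.

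Promoter windows of the members were taken from RefSeq on GRCr8, a different build from that of the table, and run from 250 bases before to 50 bases after the annotated start. A window was found by symbol for 6 of the 9 genes, *Gria4* and *Grik1* to *Grik5*; *Gria1*, *Gria2* and *Gria3* were not matched. Their base composition covered much of the range seen over all 33469 windows. The *Grik3* window was 82.3% G or C and held 49 CpG dinucleotides, at percentile 99.6 and percentile 99.2 of all windows. The *Grik5* window was 69.0% G or C with 11 CpG, that of *Gria4* 60.3% with 15 CpG and that of *Grik1* 58.7% with 12 CpG. *Grik2* had 50.3% with 8 CpG and *Grik4* had 44.0% with 4 CpG, below the median of 51.7% and, for *Grik4*, below the median of 7 CpG. The windows of *Grik1*, *Grik4* and *Grik5* lie inside the gene as RefSeq draws it, so other transcripts of these genes start further upstream.

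**Figure D2:**
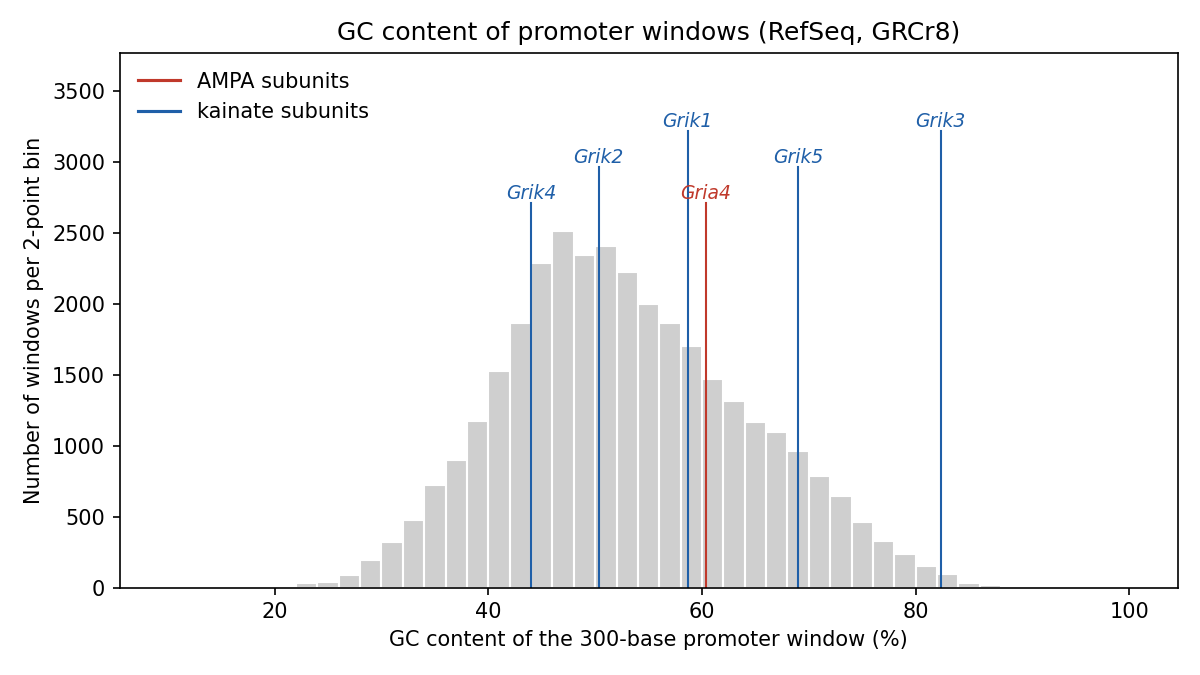
The histogram counts RefSeq promoter windows of 300 bases on GRCr8 (y axis) by GC content (x axis, %, bins of 2 points), with lines for the 6 members that have a window. *Grik4* at 44.0% and *Grik3* at 82.3% mark the ends of the members' range; line heights only separate the names.

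Exact matches to 4 short motifs were searched on both strands of these windows: the GC box GGGCGG, the cyclic AMP response element core TGACG, the E-box CACGTG and the TATA box TATAAA. Matches of different motifs did not overlap in the 6 windows. A GC box was found in 2 of the 6 windows, 6 times in *Grik3* and 2 times in *Grik5*, and 33.1% of all windows held one. TGACG was found in 1, *Grik2*, and in 21.2% of all windows. Neither CACGTG nor TATAAA was present in the 6 windows, and 6.42% and 14.2% of all windows held them. The 250 bases before the start are shown for *Grik3*, the richest in G and C, for *Grik2*, which has the TGACG match, and for *Grik4*, the poorest in G and C. They are written 5′ to 3′ on the strand of the gene, with capitals for the motif matches on either strand. On GRCr8 the positions are chr5:143052192-143052441 on the plus strand for *Grik3*, chr20:54415284-54415533 on the minus strand for *Grik2* and chr8:52102064-52102313 on the minus strand for *Grik4*.
Grik3: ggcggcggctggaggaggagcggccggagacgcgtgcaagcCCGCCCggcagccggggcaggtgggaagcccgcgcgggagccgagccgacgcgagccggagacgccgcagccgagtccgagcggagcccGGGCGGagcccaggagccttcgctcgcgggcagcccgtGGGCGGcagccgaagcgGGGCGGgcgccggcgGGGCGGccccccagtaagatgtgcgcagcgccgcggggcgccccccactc
Grik2: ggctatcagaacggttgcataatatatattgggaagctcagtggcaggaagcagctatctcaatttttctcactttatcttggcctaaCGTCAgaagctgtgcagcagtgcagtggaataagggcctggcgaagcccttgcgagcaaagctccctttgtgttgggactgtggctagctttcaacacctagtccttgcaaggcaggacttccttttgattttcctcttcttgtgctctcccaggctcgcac
Grik4: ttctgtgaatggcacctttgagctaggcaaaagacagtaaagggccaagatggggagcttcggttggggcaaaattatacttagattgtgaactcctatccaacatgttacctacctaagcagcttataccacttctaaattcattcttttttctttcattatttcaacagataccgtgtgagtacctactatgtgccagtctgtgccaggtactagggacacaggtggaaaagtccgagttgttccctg

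In *Grik3* the capitals mark 5 GC boxes, 4 read as GGGCGG and 1 on the opposite strand as CCGCCC, and the remaining match of the window falls after the start. The capitals in *Grik2* are the TGACG match read from the opposite strand. The *Grik4* stretch holds no match and 3 CpG, against 41 CpG in the *Grik3* stretch. A match of letters is not a binding site, and no measurement of these promoters was analysed here.

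Genes that act on these receptors were read from fixed lists, each by its genes with the most and the fewest reads. Of 20 genes for AMPA receptor auxiliary proteins, 17 had a row, with a median average log2 CPM of 5.34 and 10 of the 17 above the median of all genes. *Cacng7*, a gene of the transmembrane AMPA receptor regulatory proteins that govern surface delivery and gating, had the most reads at 6.95, and *Cnih3*, a cornichon homolog, the fewest at 2.52. The prototype regulatory protein gene *Cacng2* (stargazin) stood at 6.29 and *Cnih2* at 6.51; both are named for their role and were chosen after their values were seen. Among 4 genes for proteins that bind kainate receptors, *Neto1*, a subunit that slows channel closing, had the most reads at 5.88 and *C1ql2*, a secreted synaptic organizer, the fewest at 4.11. Of that list, 0 genes were among the top 25%.

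RNA editing of the receptor transcripts depends on the adenosine deaminases. *Adarb1*, whose product edits the glutamine/arginine site of *Gria2*, had an average log2 CPM of 7.71 at percentile 93.5, and *Adarb2*, a brain homolog without known editing activity, had 3.87. Of 14 scaffold and trafficking genes, 11 were above the median of all genes, from *Nsf* at 9.76, an ATPase that binds GluA2 and maintains it at the surface, down to *Epb41l1* at 2.69, a cytoskeletal linker of GluA1.

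The NMDA receptor, another glutamate-gated channel, is given for scale. Of 7 NMDA receptor genes, 6 had a row, from *Grin2a* at 5.07 to *Grin1*, the obligatory subunit, at 8.54. On the same scale of reads, the AMPA genes ran from 7.42 to 9.40 and the kainate genes from 4.75 to 7.00.

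**Figure D3:**
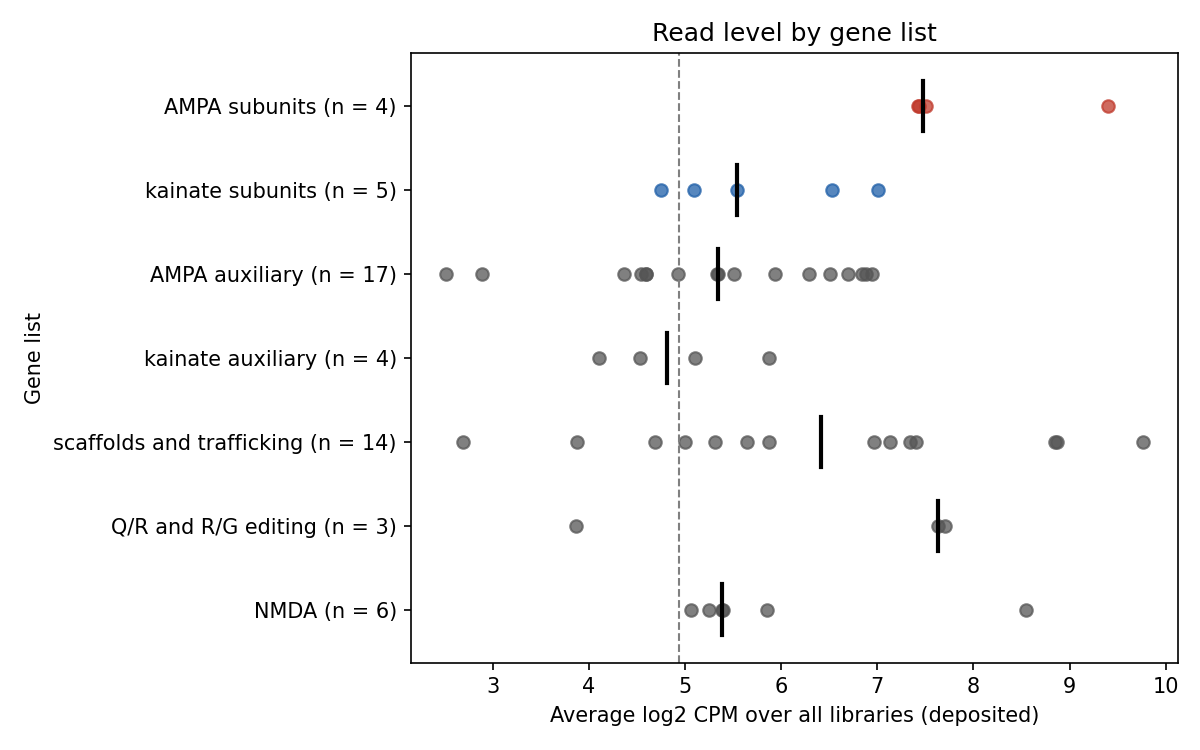
Each point is a gene placed by its deposited average log2 CPM over all libraries (x axis) in the row of its list (y axis, n genes found); black bars are list medians and the dashed line is the median of all genes, 4.94. The 4 AMPA genes lie between 7.42 and 9.40 and the 17 AMPA auxiliary genes between 2.52 and 6.95, in reads.

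Markers of the tissue were read from the same averages, and their part in the members' levels was not tested. Of 9 markers of arcuate neurons, 8 had a row, and *Npy* had none. Of these 8, 1 was above the median of all genes, and the median of the list was 2.17. They ran from *Kiss1* at 0.08 to *Cartpt* at 6.02, with *Pomc* at 4.67 and *Agrp* at 1.42, both chosen after their values were seen. All 5 markers of striatum, a region outside the ARC, had a row, from 4.26 to 7.07, and 4 of 6 markers of cortex and hippocampus had one, from 2.13 to 7.17. Oligodendrocyte markers ran from 7.26 to 12.59 and astrocyte markers from 5.51 to 10.22, whereas microglial markers ran from 4.08 to 6.82, endothelial ones from 4.85 to 6.28, thalamic ones from 2.34 to 5.28, and the tanycyte markers *Rax* and *Vim* stood at 0.08 and 7.32. In such tissue, fewer cells of a type and less RNA per cell cannot be told apart.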

How the data were processed

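Libraries of poly-A RNA from the ARC of 10 dams were processed by the authors, per the labels and methods, with Trim Galore 0.5.0 (trimming), STAR 2.6.0c (alignment to Rnor_6.0) and HTSeq 0.6.1p2 (counts on Ensembl gene models). DESeq2 was the authors' stated tool for the diet comparison. The authors deposited a table of 12828 genes (12383 protein-coding), from which the average log2 CPM over all libraries was used. It is on a log2 scale, and how it was averaged is not given in the sources used here. The table also holds 10 per-sample columns that match no sample label, which were not used in any step. Its 4 columns of the authors' own comparison hold a fold change, a test statistic, a p-value and an FDR, and were not used either. Without the per-sample columns, the depth, the spread between dams and the planned fits on values per dam (limma on FPKM or a count test) were not computed here.

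CPM was taken as 2 to the power of the average log2 CPM. It counts reads and is not scaled by length. Percentiles, genomic spans and overlaps were computed from the table. Promoter windows were searched for exact motif matches. The search was tested on simulated sequences of A and T with the GC box planted, where 200 of 200 planted motifs were found. The other motifs and sequences rich in G and C were not part of that test. Levels per transcript length and protein comparisons were planned and not analysed here. Lists comprised 58 genes by function (53 found) and 43 markers (38 found). Members and lists were chosen with earlier results of these data known. Named genes are the members, and the genes of each functional list with the most and the fewest reads. Neighbouring genes and markers named fall outside this rule, as do genes marked in the text, and were chosen after their values were seen. Some results that this rule selects, and the values of 2 of the functional lists, are not reported here. Calculations used pandas 2.3.3, numpy 2.4.6 and scipy 1.17.1 under Python 3.11.15, and figures matplotlib 3.10.9.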

Additional observations from a re-analysis of the deposited data

How the results depend on the processing

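With percentiles taken among the 12383 protein-coding genes or among the 12462 genes whose average log2 CPM reached 1, the percentile of the members' median, 87.0, became 86.7 and 86.6. Each member's percentile fell by at most 1.5 and 1.6 points, with *Grik1*, *Grik3* and *Grik4* moving beyond the 95% binomial interval (Wilson) of their value. That interval covers counting of genes only. Genes with an average below 1 all lie below every member, so the fall in the second setting was fixed in advance. With motifs searched on the strand of the gene alone, TGACG was found in 0 in place of 1 of the 6 windows, since the match in *Grik2* is on the opposite strand. The numbers of windows with the other 3 motifs were the same. GC box matches within the windows fell from 6 to 5 in *Grik3* and from 2 to 1 in *Grik5*. Not run were the alternatives on pseudocount, filter, trend, count tools, left-out replicates, length and protein alignment, which need values per dam, transcript lengths or proteins. No paired analysis was possible because the columns of values carry no label of a dam. The depth of the libraries is unknown from the values used, and no level has an error.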
